A study of Mus musculus with 15 samples.

Results

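Antigen presentation was described through 10 genes of the major histocompatibility complex (MHC) pathways, out of 21631 protein-coding genes in the RefSeq table of GRCm38.p6 on chromosomes 1 to 19 and X. The genes were taken by name and not by any measured value, though earlier results of these data were known when they were chosen. Class I presentation was represented by 6 genes, H2-K1, H2-D1, B2m, Tap1, Tap2 and Tapbp, and class II presentation by 4, Ciita, H2-Aa, H2-Ab1 and Cd74. Each gene was examined over its annotated span with 5 kb added on each side, called the window here. EL4, a mouse T lymphocyte lymphoma line of C57BL/6N origin, was assayed by chromatin immunoprecipitation and sequencing (ChIP-seq) with antibodies to 5 modifications of histone H3 (H3K4me3, H3K9ac, H3K27ac, H3K36me2 and H3K27me3) and by ATAC-seq, in which a transposase cuts into accessible DNA. Each of the 6 assays had 2 replicates, which gave 12 lists of called intervals. All libraries came from untreated cells of this 1 line, so there was no treated group, and the methods call the replicates technical where ATAC-seq and the merging of peaks are described.

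An interval here is a stretch in which the authors' peak caller found enrichment, given by its start and end with no height, score or read count. The lists held 17519 and 19255 intervals for ATAC-seq, 18127 to 28279 for H3K4me3, H3K9ac and H3K27ac, and 38014 to 46015 for the broad marks H3K36me2 and H3K27me3. The number of reads per library is unknown, so a gene without an interval is a gene at which none was called. Values with an error are means ± SD over the 2 replicates, and the SD therefore holds technical spread. Only reads with 1 place in the genome were kept, according to the methods, which bears on MHC genes because many of them have near-identical copies. The T cell label of the line was checked against 6 markers (Cd3d, Cd3e, Cd3g, Lck, Thy1 and Tcf7). The windows of 6 of 6 held H3K4me3, H3K9ac and H3K27ac in both replicates, where 54.4, 53.1 and 54.2% of all protein-coding genes did. ATAC-seq was called in both replicates in 5 of 6 of these windows, against 49.9% of all genes. Within 1 kb of an annotated start, it lay in both replicates at 3 of 5 T cell markers, against 41.2% of genes. Of 5 B cell markers, 2 had H3K4me3 in the window (Cd79a and Pax5), in neither case within 1 kb of the start. Of 5 myeloid and dendritic cell markers, 3 had it (Itgam, Lyz2 and Flt3), and Flt3 alone had it within 1 kb of its start. The window counts of the B cell and myeloid lists were near or below the share of all genes, so at these sizes they do not set those lists apart.

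MHC class I molecules are found on nearly all nucleated cells and show peptides made inside the cell to cytotoxic T cells. H2-K1 and H2-D1 encode class I heavy chains, B2m encodes the light chain beta-2 microglobulin, Tap1 and Tap2 encode the pair of subunits of the transporter that carries peptides into the endoplasmic reticulum, and Tapbp encodes tapasin, which holds empty class I molecules at that transporter. Class II molecules are made mainly by B cells, dendritic cells and macrophages and show peptides from outside the cell to helper T cells. H2-Aa and H2-Ab1 encode the alpha and beta chains of the I-A molecule, Cd74 encodes the invariant chain that guards the peptide groove, and Ciita encodes the transactivator on which class II transcription depends. Mouse T cells usually carry class I and little or no class II. H3K4me3 marks active promoters, H3K9ac and H3K27ac mark active promoters and enhancers, H3K36me2 spreads over gene bodies and between genes, and H3K27me3 is laid down by Polycomb complexes at silent genes.

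Promoters of both classes share a module known from classical work, in which an X1 box, an X2 box related to the cAMP response element and a Y box (inverted CCAAT) lie in fixed order and are bound by RFX, CREB and NF-Y factors. The bases before the start are shown for 4 class I genes, whose starts lay in intervals of all 4 narrow lists (H3K4me3, H3K9ac, H3K27ac and ATAC-seq), and for H2-Aa, the class II member with an entry in the promoter table, whose start lay in an ATAC-seq interval of 1 replicate. They are RefSeq sequences of GRCm38.p6, written 5′ to 3′ on the strand of the gene, 250 bases each and ending at the base before the annotated start. Capitals mark matches on either strand to the letters searched, which were ATTGG for the Y box (CCAAT on the other strand), TGACG for the X2 box, AGNNACNG for the X1 box, GAAANNGAA for the interferon-stimulated response element, GGGNNTTCC for NF-kB and TTCNNNGAA for the gamma-activated site. H2-K1 lies on the minus strand at chr17:34000334-34000583, H2-D1 on the plus strand at chr17:35262844-35263093, B2m on the plus strand at chr2:122147437-122147686, Tap1 on the plus strand at chr17:34187306-34187555 and H2-Aa on the minus strand at chr17:34287824-34288073.
H2-K1: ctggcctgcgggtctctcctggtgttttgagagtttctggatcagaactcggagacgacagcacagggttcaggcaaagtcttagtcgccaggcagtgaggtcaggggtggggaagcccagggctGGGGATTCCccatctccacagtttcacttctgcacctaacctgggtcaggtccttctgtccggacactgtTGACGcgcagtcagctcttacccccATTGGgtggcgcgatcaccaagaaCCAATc
H2-D1: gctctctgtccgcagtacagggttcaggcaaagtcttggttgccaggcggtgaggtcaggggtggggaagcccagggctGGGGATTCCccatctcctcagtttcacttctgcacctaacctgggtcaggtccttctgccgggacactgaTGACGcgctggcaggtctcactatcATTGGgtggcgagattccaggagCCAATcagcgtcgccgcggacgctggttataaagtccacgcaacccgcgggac
B2m: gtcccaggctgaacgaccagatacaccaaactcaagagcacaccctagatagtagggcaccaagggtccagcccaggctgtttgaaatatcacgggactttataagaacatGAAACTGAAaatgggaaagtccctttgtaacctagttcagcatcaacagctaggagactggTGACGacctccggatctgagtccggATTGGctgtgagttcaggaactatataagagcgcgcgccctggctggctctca
Tap1: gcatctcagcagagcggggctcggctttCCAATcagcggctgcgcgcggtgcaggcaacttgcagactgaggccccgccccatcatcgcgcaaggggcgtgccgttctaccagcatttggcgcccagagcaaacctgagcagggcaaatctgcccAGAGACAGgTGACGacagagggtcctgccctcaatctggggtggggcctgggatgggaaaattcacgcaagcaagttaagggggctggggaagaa
H2-Aa: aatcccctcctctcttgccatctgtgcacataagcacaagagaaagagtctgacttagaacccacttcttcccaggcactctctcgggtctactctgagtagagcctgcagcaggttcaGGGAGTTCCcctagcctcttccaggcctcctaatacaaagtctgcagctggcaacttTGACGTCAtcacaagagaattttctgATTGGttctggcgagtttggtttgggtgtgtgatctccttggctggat

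RefSeq gives H2-K1 starts at 34000333 and 34000347, and its positions here are counted from 34000333. In H2-K1, TGACG began 55 bases before that start and ATTGG 30 bases before it, on the same strand (41 and 16 bases before the other start). H2-D1 held the same pair at 101 and 76 bases before its start, and B2m at 78 and 53. The distance from TGACG to ATTGG was thus 25 bases in all 3 of these class I genes. In H2-Aa it was 26, with TGACG 74 and ATTGG 48 bases before the start. Of the further pathway genes examined below, H2-M3 held the pair at 25 and H2-Q7 at 24. No class II gene other than H2-Aa held it at 24 to 26. Of the 11 class II genes with an entry, H2-Aa included, 9 held ATTGG and 2 held TGACG. Among 21045 promoters of the table, each taken from 250 bases before to 50 after the start, 49 (0.233%) held this pair on the same strand at a distance of 25 or 26. That distance was chosen after the matches had been seen. Each part of the pair on its own was frequent, with ATTGG in 38.5% of all promoters and TGACG in 23.8%. Tap1 held TGACG 86 bases before the start and an AGNNACNG match 95 bases before it, with its CCAAT far from both, and Tapbp held ATTGG 248 and 165 bases before its start and no TGACG. AGNNACNG occurred in 50.1% of all promoters, and of the printed stretches that of Tap1 alone held a match to it.

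A GGGNNTTCC match lay 125 bases before the start of H2-K1 and 171 before that of H2-D1, both reading GGGGATTCC, and one reading GGGAGTTCC lay 131 bases before the start of H2-Aa. Of all promoters, 6.35% held such a match. B2m held GAAACTGAA 139 bases before its start, a match to GAAANNGAA, which 8.1% of promoters held. No promoter of the members in the table held TTCNNNGAA, found in 7.76% of all. H2-K1 and H2-D1 were alike over long stretches, with 222 of 253 aligned bases identical (87.7%), and 13 of 263 words of 38 bases (4.94%) of either promoter also occurred in the other. For B2m, Tap1, Tapbp and H2-Aa, 0 such words occurred in another member's promoter. CpG dinucleotides numbered 15 in H2-K1, 19 in H2-D1, 14 in B2m, 15 in Tap1, 11 in Tapbp and 3 in H2-Aa, against a median of 13 over all promoters. The class II lists had a median of 3 CpG (range 0 to 29, the highest at H2-DMa) over the 11 of 14 genes with an entry. The class I members had a median of 15 (range 11 to 19) over 5 of 6. The other class I and peptide supply genes had a median of 12 (range 2 to 38) over 16 of 17. Tap2, Ciita, H2-Ab1 and Cd74 had no entry.

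All 6 class I genes had H3K4me3, H3K9ac, H3K27ac and ATAC-seq intervals in both replicates, and none of the 4 class II genes had H3K4me3 or H3K9ac in either replicate. For comparison, 54.4% of all protein-coding genes held H3K4me3 in their window in both replicates, 53.1% held H3K9ac, 54.2% held H3K27ac and 49.9% held ATAC-seq. Windows of the members had medians of 17533 bp for class I and 17498 bp for class II against 27329 bp over all genes. That of Ciita was longer than the median of all genes, with 61051 bp, and those of the other members were shorter. The absence of all 3 narrow marks from a window in any replicate, seen at Ciita, H2-Aa and H2-Ab1 but at no class I gene, was found at 43.2% of all genes. The exception among class II genes was Cd74, with a short H3K27ac interval in both replicates, and H2-Aa had an ATAC-seq interval in replicate 1 but none in replicate 2.

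By counts of genes, the broad marks did not follow this division. H3K36me2 was called in both replicates at 4 of 6 class I genes and at 3 of 4 class II genes, where the share of all genes was 49.8%. B2m had it in replicate 2 alone, H2-K1 and H2-Ab1 in neither. At H2-Aa the call in replicate 2 rested on 223 bp at the edge of the window, from an interval nearest to H2-Eb1. Within gene spans without flanks, H3K36me2 was called in both replicates at 4 class I genes and 2 class II genes. The share of the span that it covered was higher in class I, by a mean of 43.4 percentage points (37.0 and 49.8 in replicates 1 and 2). The same differences were 46.5 for H3K4me3, 39.8 for H3K9ac and 42.3 for H3K27ac. H3K27me3 was called in both replicates at 1 class II gene, Ciita, and at 0 class I genes in either replicate, and 20.6% of all genes had it. With 6 and 4 genes chosen by name, these counts are a description, and no test was made over the genes.

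H3K4me3 intervals covered 32.4 and 31.7% of the class I windows on average in replicates 1 and 2, and 0% of the class II windows. H3K9ac covered 27.1 and 27.6% against 0%, and H3K27ac covered 30.5 and 30.4% against 0.668 and 0.312%. ATAC-seq intervals, which are much shorter, covered 5.62 and 6.04% against 0.332 and 0%. Class I lay above class II in both replicates for each of these 4 lists, and the differences were 32.0 ± 0.474, 27.3 ± 0.361, 30.0 ± 0.171 and 5.67 ± 0.532 percentage points. For H3K36me2 the class I windows were covered to 46.3 and 49.5% and the class II windows to 32.8 and 19%, a difference of 22.0 ± 12.0 points that was 13.5 in replicate 1 and 30.5 in replicate 2. H3K27me3 covered 0% of class I windows and 7.52 and 5.0% of class II windows, all of it at Ciita.

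**Figure D1:**
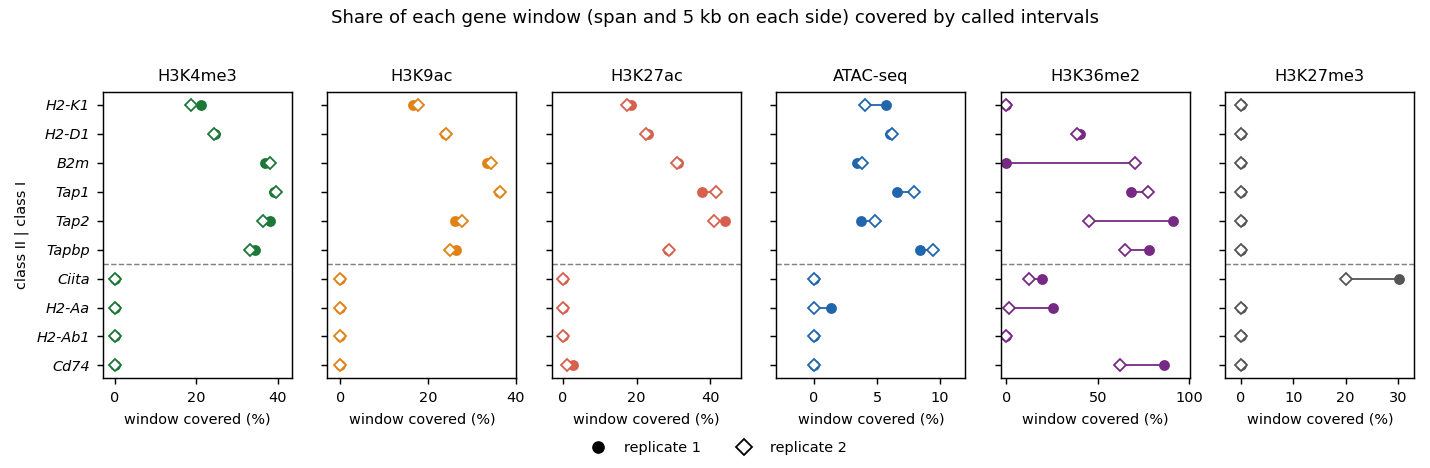
Share of each gene window covered by called intervals (percent, x axes) for the 10 genes (rows) in 6 panels, 1 per assay, with filled circles for replicate 1, open diamonds for replicate 2 and a line joining them; the dashed line parts class I (above) from class II (below). The H3K4me3 values of the 6 class I genes sit between 18.7 and 39.5%, those of the 4 class II genes at 0%, while H3K36me2 spreads from 0 to 91.2% without such a split.

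H2-K1 (chromosome 17, 33996012 to 34000619, minus strand) carried an H3K4me3 interval that reached from 1097 bp before its start to 1645 bp after it in replicate 1, and from 1054 bp before to 1676 bp after in replicate 2. H3K9ac and H3K27ac intervals held the start in both replicates, as did ATAC-seq intervals of 836 and 594 bp. H2-K1 was the class I gene with the least H3K4me3 over its window (21.2 and 18.7%), and its window held no H3K36me2 and no H3K27me3. The nearest H3K36me2 interval was 19.2 kb away in each replicate. H2-D1 (chromosome 17, 35263094 to 35267497, plus strand) had H3K4me3 from 804 bp before its start to 2328 bp after it in replicate 1, and from 822 bp before to 2323 bp after in replicate 2. Unlike H2-K1, its body was covered by H3K36me2 in intervals of 5799 and 5599 bp that ran past the far end of the gene. A second site upstream of H2-D1, from -5.39 to -4.59 kb relative to the start in replicate 1, held H3K4me3, H3K9ac, H3K27ac and ATAC-seq intervals in both replicates.

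B2m (chromosome 2, 122147687 to 122153082, plus strand) had the widest H3K4me3 interval of the members, 5387 bp in replicate 1 and 5321 bp in replicate 2, which began 2088 and 2091 bp before the start. Patl2 overlaps this span in the annotation, so intervals there cannot be given to B2m alone. H3K9ac formed 1 interval of 5151 bp in replicate 1 and 3 intervals in replicate 2, while the share of the window covered was nearly the same (33.5 and 34.4%). The accessible site at the start was narrow in comparison, with 522 and 589 bp. H3K36me2 was absent from the window in replicate 1 and covered 70.1% of it in replicate 2, the largest disagreement between replicates among the members.

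Tap1 (chromosome 17, 34187556 to 34197225, plus strand) shares its start region with Psmb9, an immunoproteasome subunit gene whose span lies 225 bp away on the other side. H3K4me3 ran from 2294 bp before the Tap1 start to 1200 bp after it in replicate 1 and from 2288 to 1198 bp in replicate 2, and the middle of this interval was nearer to Psmb9 in both. ATAC-seq intervals of 656 and 595 bp held the start. The far end of Tap1 is 969 bp from Psmb8, a further immunoproteasome gene, and the H3K4me3 intervals there, of 3533 and 3630 bp, lay nearest to Psmb8. Between these sites H3K36me2 covered the body of Tap1 in intervals of 9799 and 9399 bp.

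Tap2 (chromosome 17, 34204479 to 34216321) had the longest span of the class I members, 11843 bp. It also had the most H3K4me3 intervals touching the span, 6 in replicate 1 and 5 in replicate 2. Tap1 had as many H3K9ac intervals on its span in replicate 1 (3) and as many H3K27ac intervals in replicate 2 (5). The widest H3K4me3 intervals of Tap2, 3435 and 3278 bp, covered the lower end of the span. Further ones followed as far as 8.76 and 8.70 kb into the gene. H3K27ac covered 43.9 and 40.9% of the window, with the highest mean of any member (42.4%). ATAC-seq intervals lay about 1.4 to 1.8 kb and 6.1 to 6.6 kb from the lower end in both replicates, and the one at the end itself was called in replicate 2 alone. An H3K36me2 interval of 20799 bp covered the whole gene in replicate 1. Replicate 2 had 2 intervals of 5399 bp each in the window. Of these, 1 lay inside the gene, from 0.72 to 6.12 kb. The other lay outside the span, from -5.88 to -0.48 kb, and nearest to Psmb8.

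Tapbp (chromosome 17, 33919478 to 33929290, plus strand) lies in a gene-dense stretch, 152 bp from Zbtb22 and 223 bp from Rgl2. Of the 3 H3K4me3 intervals in its window in each replicate, 1 held its start (2310 and 2092 bp), 1 lay nearest to Zbtb22 and 1 nearest to Rgl2. ATAC-seq intervals of 437 and 461 bp held the start. Tapbp had the most ATAC-seq coverage of the members, 8.38 and 9.46%, but 3 of the 4 intervals counted lay at the neighbours in each replicate. With intervals whose middle was nearer to another protein-coding gene left out, the class I windows still lay above the class II windows, with mean differences of 22.0 points in H3K4me3 coverage, 18.7 in H3K9ac, 20.7 in H3K27ac and 3.63 in ATAC-seq.

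**Figure D2:**
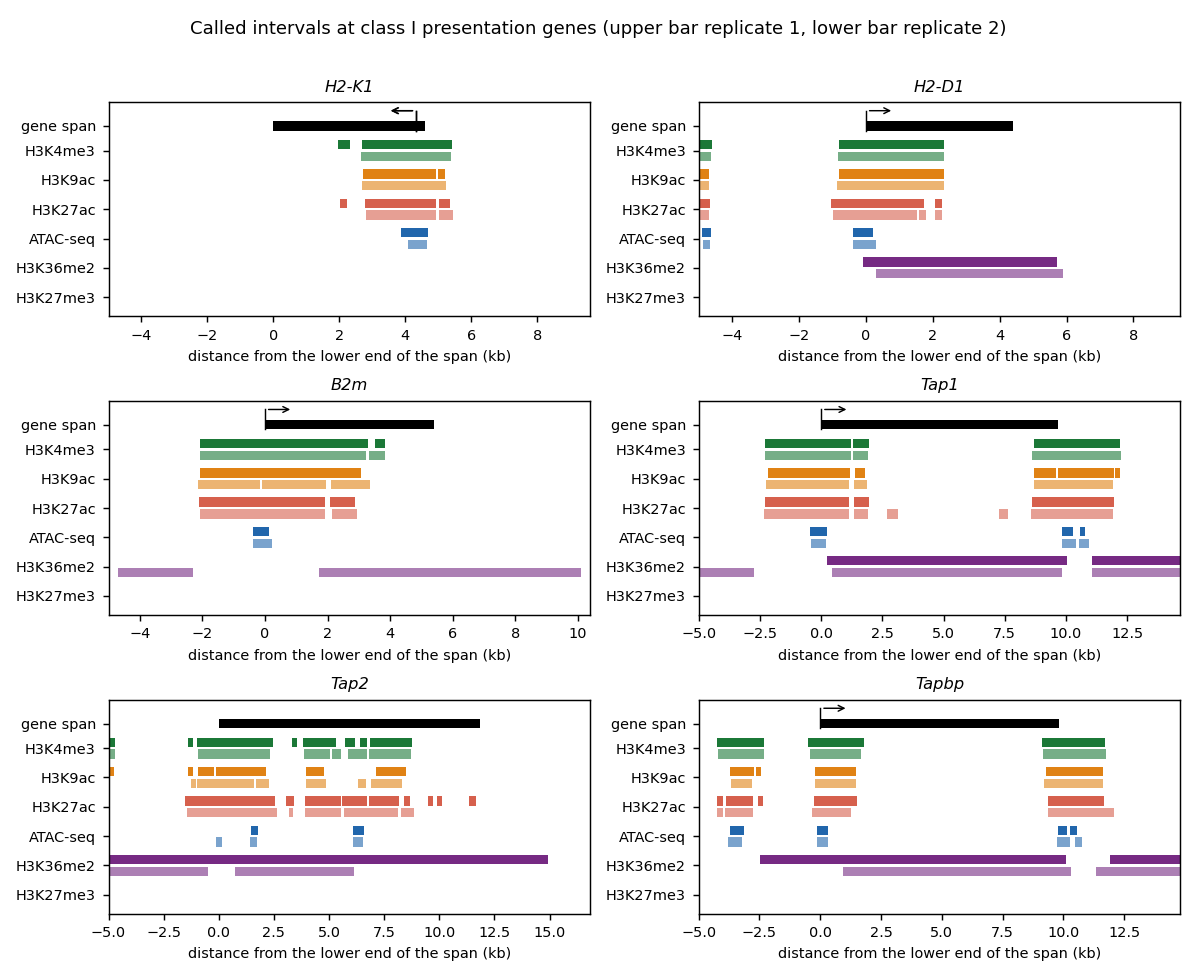
Called intervals in the windows of the 6 class I presentation genes; the x axis is the distance in kb from the lower end of the gene span, the black bar is the span, arrows show annotated starts and their direction, and each list has an upper bar for replicate 1 and a lower, paler bar for replicate 2. In all 6 panels the narrow marks form blocks in both replicates, H3K36me2 lies over the gene bodies of 5 genes in at least 1 replicate, and the H3K27me3 line is empty.

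Ciita (chromosome 16, 10480014 to 10531064) held no interval of any narrow list in either replicate. H3K27me3 was called in 4 intervals in replicate 1 and in 3 in replicate 2, which covered 18396 and 12197 bp of the window, 30.1% of it in replicate 1. At the lower end of the span the intervals ran from -2.61 to 1.78 kb in replicate 1 and from -0.01 to 3.98 kb in replicate 2, and a further pair overlapped at 24.99 to 32.19 kb and 25.59 to 29.79 kb. The others were called in 1 replicate alone, so that 5998 bp were covered in both replicates and the fraction of base pairs shared between them (Jaccard index) was 0.244. H3K36me2 lay at the opposite end, from 43.19 kb onward in replicate 1 and from 48.39 kb in replicate 2, where Dexi overlaps the span. Ciita was the member with both broad marks in its window, in separate stretches.

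H2-Aa (chromosome 17, 34282744 to 34287823, minus strand) had an ATAC-seq interval of 200 bp in replicate 1, from 104 bp before its start to 95 bp after it. No ATAC-seq interval at a gene end was narrower in that list, where the median was 578 bp. Replicate 2 had none, and its nearest ATAC-seq interval was 11.6 kb away. An H3K36me2 interval of 3599 bp also held the start in replicate 1 alone. The last 104 bases of the stretch printed for H2-Aa, which hold its TGACG and ATTGG, lay under that ATAC-seq interval. H2-Ab1 (chromosome 17, 34263227 to 34269418), the partner chain, had no interval in any of the 12 lists, and its nearest H3K4me3 interval was 50.0 kb away in each replicate. Both chains lay in a stretch of 112.0 kb without H3K4me3 in either replicate, which also held H2-Ob and H2-Eb1, and 63.9 kb of it was free of H3K4me3, H3K9ac and H3K27ac. That stretch began within Tap2, so marked and unmarked MHC genes lay side by side.

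Cd74 (chromosome 18, 60803849 to 60812652) had H3K27ac intervals of 503 bp in replicate 1 and 235 bp in replicate 2, which ended 485 and 535 bp outside the lower end of the span. Of all genes with H3K27ac at a gene end, 3.62 and 0.502% had narrower intervals. No H3K4me3, H3K9ac or ATAC-seq interval accompanied it, and the nearest ones were 27.3 to 29.0 kb away. H3K36me2 covered 86.4 and 62.0% of the window, more than at any other class II member. Tcof1 lies 1085 bp from Cd74, and the H3K36me2 interval at the upper end lay nearest to it in both replicates. The stretch without H3K4me3 measured 67.2 kb around Cd74 and 128.5 kb around Ciita.

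**Figure D3:**
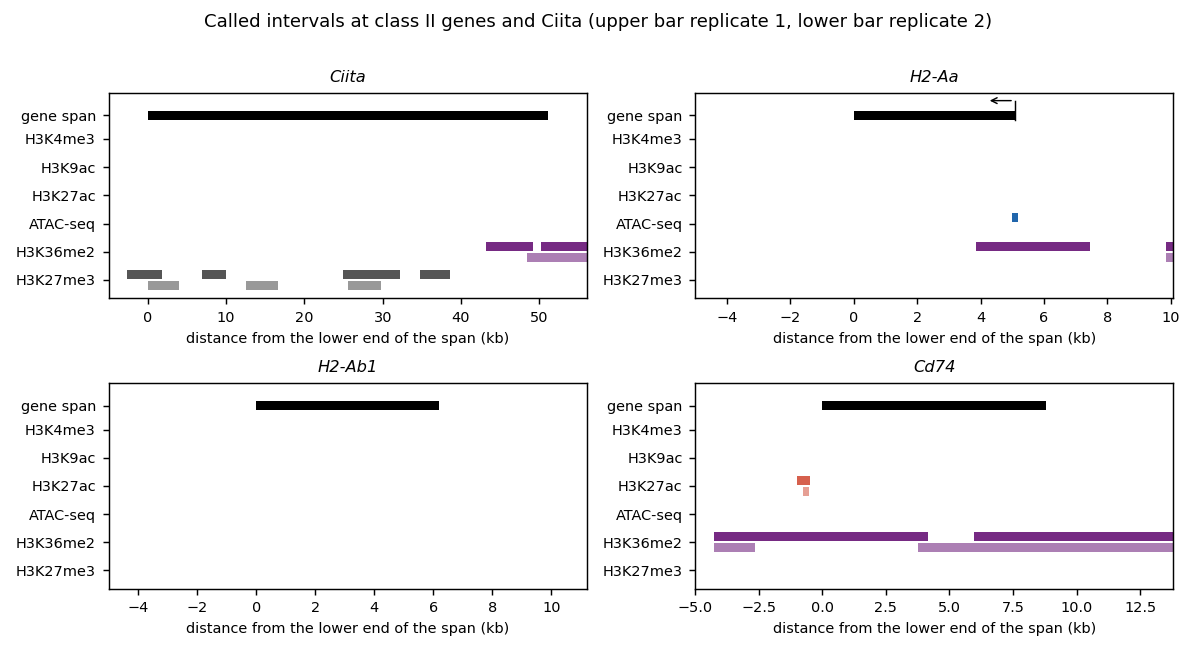
Called intervals in the windows of the 4 class II genes, drawn as for class I, with distance in kb from the lower end of the span on the x axis and replicate 1 above replicate 2. The H3K4me3 and H3K9ac lines are empty in all 4 panels, the H3K27ac bars of 503 and 235 bp stand beside Cd74, the ATAC-seq bar of 200 bp stands at the start of H2-Aa in replicate 1, and H3K27me3 appears at Ciita.

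A window that grows with the gene favours long genes, and so the 2 kb around each gene end (1 kb on either side) were examined as well. Both ends were used because the gene table gives no strand. H3K4me3, H3K9ac and H3K27ac were found at an end of 6 of 6 class I genes in both replicates, where 44.2, 43.4 and 43.9% of all genes had them. ATAC-seq was found at 5 of 6, with Tap2 the exception, against 38.7% of all genes. All 4 narrow lists in both replicates were found at 5 of 6 class I genes and at 38.0% of all genes. H3K36me2 lay at an end of 4 class I and 2 class II genes (33.0% of all genes), and H3K27me3 at an end of Ciita alone (10.4% of all genes). Of the class II genes, Cd74 had H3K27ac at an end in both replicates, and none had the other narrow lists there in both.

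For 17274 protein-coding genes the promoter table gives a start, 5 of them class I members and 1, H2-Aa, a class II member. Within 1 kb of the start, H3K4me3, H3K9ac, H3K27ac and ATAC-seq lay in both replicates at 5 of 5 class I genes and not at H2-Aa, against 45.9, 45.3, 45.4 and 41.2% of all genes with a start. The start base itself lay inside H3K4me3 in both replicates at 5 of 5, against 44.6% of genes. H3K36me2 lay within 1 kb of the start in both replicates at H2-D1, Tap1 and Tapbp, against 15.4% of genes, and H3K27me3 at none of the 6, against 7.14%. At Tap1 the H3K36me2 interval began 245 bp after the start in replicate 1 and 445 bp after it in replicate 2, so its start base was outside.

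H3K36me2 and H3K4me3 overlapped at class I genes. At H2-D1, 41.8 and 36% of the base pairs under H3K36me2 in the window were also under H3K4me3 of the same replicate. The shares were 30.9 and 25.1% at Tap1, 41.8 and 42.8% at Tap2 and 22.3 and 18.2% at Tapbp. B2m had 19% in replicate 2. At Ciita, H2-Aa and Cd74 the share was 0%, since they had no H3K4me3. For comparison, H3K4me3 covered 24.6 and 24.4% of the whole window at H2-D1 and 38.1 and 36.4% at Tap2, below their shares. At Tap1 (39.1 and 39.5%), Tapbp (34.3 and 33.2%) and B2m in replicate 2 (38.0%) it covered more of the window than of the H3K36me2 base pairs.

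The lists carry no score, and width is the size an interval has. Among genes with H3K4me3 at an end, 9603 in replicate 1 and 9583 in replicate 2, the median of the widest interval was 1950 and 1936 bp. B2m was wider than 98.9% of these genes in each replicate. Tap1 followed with 92.8 and 93.9%, through the interval on the side of Psmb8, then Tap2 with 91.9 and 90.8%, H2-D1 with 88.2 and 89.1%, H2-K1 with 81.0 and 81.3% and Tapbp, through the interval on the side of Rgl2, with 77.1 and 78.0%. All 6 thus lay above the median in both replicates, and their order was the same in each. For H3K9ac, B2m fell from 99.3% in replicate 1 to 73.4% in replicate 2, where its block was split into 3 intervals. For ATAC-seq, 5 class I genes had an interval at an end in both replicates. Their widest was wider than that of 26.9 to 80.1% of genes with such an interval in replicate 1. In replicate 2 the range was 34.8 to 56.4%, and its low end was Tapbp, through an interval of 526 bp on the side of Rgl2. The ATAC-seq interval at the end of Tap2, called in replicate 2 alone, was narrow, with 283 bp against a median of 629 bp. Narrower ones were found at 6.03% of genes.

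**Figure D4:**
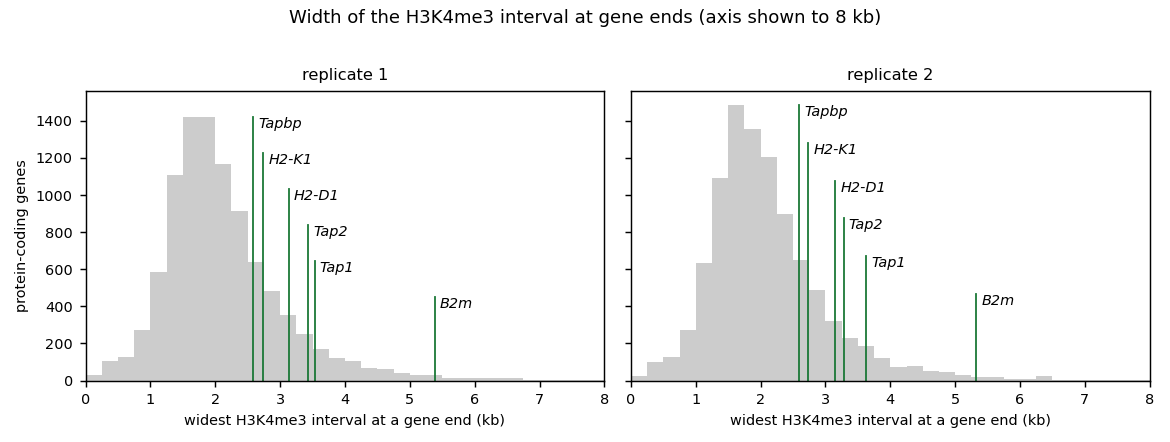
Number of protein-coding genes (y axis) by the width in kb of the widest H3K4me3 interval at a gene end (x axis, shown to 8 kb), for replicate 1 on the left and replicate 2 on the right, with green lines at the 6 class I genes. All 6 lines stand to the right of the medians of 1950 and 1936 bp, with Tapbp nearest to them and B2m farthest out at 5387 and 5321 bp; the height of the lines has no meaning.

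Presence or absence at the gene ends in the 12 lists gives each gene a pattern. H2-D1, Tap1 and Tapbp had the same one, with every list but those of H3K27me3, and 4780 genes (22.1%) shared it. B2m and Tap2 differed from it in 1 list each and H2-K1 in 2. The 4 class II genes had 4 different patterns. The empty pattern of H2-Ab1 was shared by 6153 genes (28.4%), that of Cd74 by 54 genes (0.25%), that of Ciita by 47 (0.217%) and that of H2-Aa, with ATAC-seq and H3K36me2 in replicate 1 alone, by 2 (0.00925%). The pattern of Cd74 at its ends was also that of Lck, a T cell kinase gene, whose annotated starts lie inside its span and carry all 4 narrow lists.

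Further genes of both pathways were examined from lists. Among 17 other class I and peptide supply genes, 14 had H3K4me3 and H3K9ac in the window in both replicates, 15 had H3K27ac, 13 had ATAC-seq, 14 had H3K36me2 and 0 had H3K27me3. Over all genes the shares were 54.4% for H3K4me3, 53.1% for H3K9ac, 54.2% for H3K27ac, 49.9% for ATAC-seq, 49.8% for H3K36me2 and 20.6% for H3K27me3. Calr, Erap1, H2-M3, Psmb8, Psmb9, Psme1 and Tapbpl had the same 12 values at their ends as H2-D1, Tap1 and Tapbp. The genes without H3K4me3 were H2-Q6, H2-Q10 and H2-T3, which encode class I molecules outside the classical set. H2-M3, H2-Q4, H2-Q7 and H2-T23, also outside that set, had it in both replicates. H2-Q6 and H2-Q7 are close copies, and H2-Q7 had H3K4me3 in both replicates while H2-Q6 had no interval in any list. Since reads with several places in the genome were dropped, a comparison between such copies is uncertain.

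Among 10 other class II genes, 4 had H3K4me3 and H3K9ac in the window in both replicates, 6 had H3K27ac, 4 had ATAC-seq, 4 had H3K36me2 and 3 had H3K27me3. The shares of all genes were 54.4, 53.1, 54.2, 49.9, 49.8 and 20.6% in the same order, and the counts of this list lay near them. H2-Eb2 had the narrow lists and H3K36me2 at its start in both replicates, and its ends gave the class I pattern. H2-Oa, a chain of the H2-O molecule that restrains peptide loading, had H3K4me3, H3K9ac and H3K27ac at its start but no ATAC-seq. H2-Eb1, the beta chain of I-E, had H3K27ac, ATAC-seq and H3K36me2 at its start without H3K4me3 or H3K9ac, in both replicates. The H3K4me3 interval at H2-DMa lay nearest to Brd2, and that in the window of Ifi30 was more than 1 kb from its start. H2-DMb1, H2-DMb2 and Marchf1 had H3K27me3 in the window in both replicates, as Ciita did. H2-DMb1, H2-DMb2 and Ciita also had it at a gene end in both replicates, but Marchf1 had none at its ends or starts. The window of Marchf1 is long, with annotated promoters from 65617790 to 66386350 on chromosome 8. Ctss and H2-Ob had the empty pattern of H2-Ab1 at their ends, as did Marchf1.

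Of 14 regulators, 13 had H3K4me3, H3K9ac and H3K27ac in the window in both replicates, 14 had ATAC-seq and H3K36me2, and 0 had H3K27me3, beside the same shares of all genes. Nlrc5, the transactivator of class I genes, had all but H3K27me3 at its ends, in contrast to Ciita. Rfx5 and Rfxank, subunits of the factor that binds the X1 box, had all 4 narrow lists at their starts. The H3K4me3 intervals at the ends of Rfxank lay nearest to Borcs8 and Nr2c2ap. Rfxap, the remaining subunit, had ATAC-seq and H3K36me2 in its window and none of the narrow marks. Nfya, Nfyb and Nfyc, which form the factor that binds CCAAT, and Creb1 had all 4 narrow lists at their starts. The interferon pathway genes Irf1, Irf2, Ifngr1, Ifngr2, Jak1 and Jak2 had all 4 in their windows. All of the 12 regulators with an annotated start had H3K4me3, H3K9ac, H3K27ac and ATAC-seq within 1 kb of it in both replicates. Of all 17274 genes with a start, 45.9, 45.3, 45.4 and 41.2% did, in that order.

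**Figure D5:**
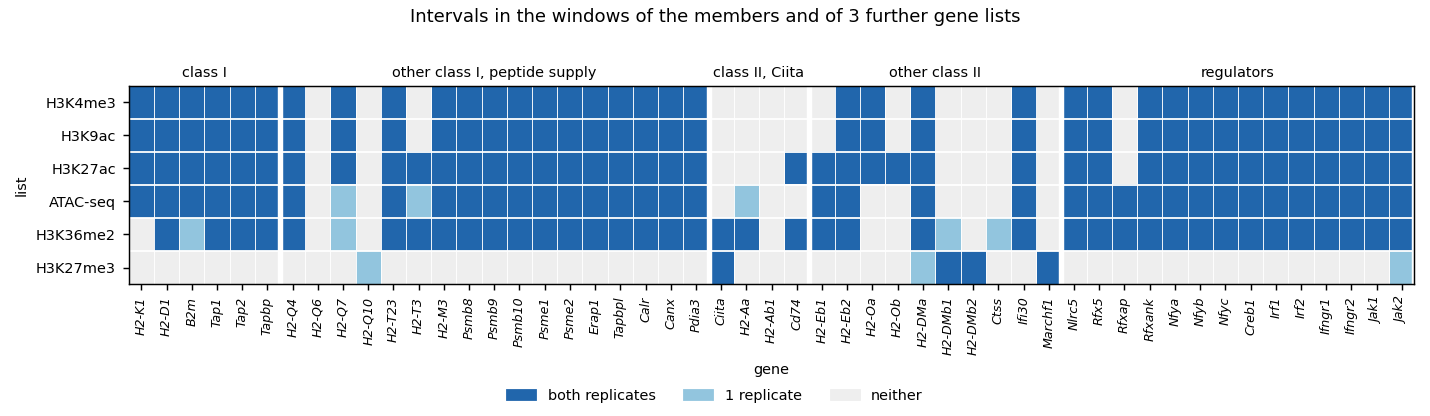
Presence of intervals in the gene window for the 10 members and the 3 further lists (genes along the x axis, the 6 assays as rows), in dark blue where both replicates had one, in light blue for 1 replicate and in grey for neither. The class I and regulator columns are dark in the 4 upper rows with few exceptions (14 of 17 and 13 of 14 for H3K4me3), the 4 class II columns with Ciita are grey for H3K4me3 and H3K9ac, and the other class II genes are mixed (4 of 10).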

How the data were processed

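The authors deposited 1 list of called intervals per replicate for 5 ChIP-seq marks and ATAC-seq in EL4 cells. The deposited positions are in base pairs on GRCm38 (per the labels), with no score, count or normalization. According to the submitters' processing notes and the methods, reads were aligned with STAR 2.5, unique alignments kept and duplicates treated with Picard. Narrow marks and ATAC-seq were called with MACS2 and broad marks with Epic, with input as the ChIP-seq control. Broad intervals lie on bins of 200 bp. The input library and the RNA-seq samples were not analysed here, and 0 columns of other samples were met. Depth is unknown. The methods say that reads on the sex chromosomes were discarded, but each list held 331 to 732 intervals on X, and X was kept in the shares of all genes.

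Intervals sharing at least 1 bp with a window (RefSeq span of GRCm38.p6 and 5 kb on each side) were counted, and the base pairs covered were summed per replicate. The gene table gives no strand, so 1 kb on either side of both gene ends stood in for starts, with annotated starts where the promoter table had them (6 of 10 members). The members and lists were chosen with earlier results of these data known, and no test was run. All members were named. Of 15 regulators listed, 1 is not reported here. From the lists were named the genes with the most frequent class I pattern or the empty pattern of H2-Ab1, and those alone on a side of a count. The empty pattern was held by 1 of 4 class II members and was taken by sort order, since no pattern was most frequent there. After their values were seen, further genes of 5 or fewer on a side and the regulators were named too. Counts over 21631 genes and 12 lists differed from bedtools 2.31.1 at 0 genes, and the counting was tested on simulated data. Alternatives were other windows, overlaps and replicate rules, each replicate left out, intervals nearest to the member and all genes of the table. Python 3.11.15, numpy 2.4.6, pandas 2.3.3, biopython 1.88 and matplotlib 3.10.9 were used.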

Additional observations from a re-analysis of the deposited data

How the results depend on the processing

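No paired analysis was possible because the results come from no test. No difference between the classes changed its sign under any alternative. The difference in the share of the window covered, class I minus class II in percentage points, became 30.8 (H3K4me3), 25.8 (H3K9ac), 28.3 (H3K27ac), 4.92 (ATAC-seq) and -2.46 (H3K27me3) with base pairs covered in both replicates. With either replicate it became 33.2, 28.9, 31.6, 6.42 and -10.1 in that order. The span without flanks gave 46.5, 39.8 and 42.3 for the narrow marks and 43.4 for H3K36me2, and 10 kb on each side gave 25.1, 21.8 and 24.2 for the narrow marks, 4.57 for ATAC-seq and 13.1 for H3K36me2. At 1 kb on either side of both gene ends it was 61.2, 58.5 and 58.5 for the narrow marks, 18 for ATAC-seq, 7.39 for H3K36me2 and -9.42 for H3K27me3. Intervals nearest to the member gave 22.0, 18.7, 20.7 and 3.63 for the narrow lists. Class II genes with ATAC-seq numbered 1 with either replicate, and 0 to 1 with a replicate left out (1 without replicate 2, H2-Aa), and those with H3K27ac numbered 0 within spans, where Cd74 was lost. Over all 49554 genes of the table the shares fell to 33.4, 32.2, 33.7 and 29.8% for the narrow lists. With autosomes only, chosen after seeing the data, the shares of protein-coding genes were 50.8 to 55.3% for the narrow lists, 51.8% for H3K36me2 and 21.3% for H3K27me3. An overlap of 200 bp changed no count. The cause of these shifts was not tested beyond what each alternative's window or replicate rule fixes. Depth and enrichment are unknown, so a weak signal below the callers' thresholds cannot be told apart from none.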
